A study of Drosophila melanogaster with 11 samples.

Results

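The 9 genes described here encode the enzymes and a carrier that store and release carbohydrate in the fly, and they were measured among 15603 genes in each of 11 Drosophila melanogaster RNA-seq libraries. They were chosen by name as a pathway group, with earlier results of these data known. GlyP (FBgn0004507) is glycogen phosphorylase, CG33138 (FBgn0053138) is the glycogen branching enzyme and CG6904 is glycogen synthase. Tps1 (FBgn0027560) is trehalose-6-phosphate synthase, Treh (FBgn0003748) is trehalase and Tret1-1 (FBgn0050035) is a trehalose transporter. Hex-A (FBgn0001186) and Hex-C (FBgn0001187) are hexokinases, and ImpL3 (FBgn0001258) is lactate dehydrogenase. Values were FPKM, the number of sequenced fragments of a gene divided by its transcript length and by the library's depth, so that levels of different genes can be set side by side.

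Glycogen is a branched store of glucose in muscle and fat body. Synthase lengthens its chains, the branching enzyme adds branch points, and phosphorylase releases glucose-1-phosphate from chain ends. Trehalose, a disaccharide of glucose, is the main sugar of insect blood. The fat body, which does much of the work of liver and adipose tissue, makes it through trehalose-6-phosphate synthase, transporters such as Tret1-1 carry it across the cell membrane, and trehalase in the tissues that use it splits it into glucose. Hexokinases then trap glucose as glucose-6-phosphate, and lactate dehydrogenase converts pyruvate, the end product of glycolysis, to lactate.

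The 3 thorax libraries came from pooled adult females whose tubulinGeneSwitch driver, active in most cells, had been crossed to w1118 (control), to UAS-dOTC or to an ND75 RNAi line, and all 3 groups received RU486, the drug that switches the driver on, for a day. UAS-dOTC encodes ΔOTC, a deletion form of the human enzyme ornithine transcarbamylase that misfolds in the mitochondrial matrix, and ND75 is a subunit of respiratory complex I. Heads, abdomens, wings, legs and guts were taken off in dissection, and gut transcripts were still measured in all 3 libraries. The 8 fat body libraries came from DaGeneSwitch crossed to UAS-dOTC, either WT or null for the mitochondrial phosphatase PGAM5 on both sides of the cross, as L3 larvae or as adults a week old, each without and with RU486. Adults had received RU486 only while they were larvae. All 8 carried the transgene and the ubiquitous daughterless driver, and none received RU486 without it, so RU486 and ΔOTC cannot be told apart in fat body. Treated and control thoraces came from different crosses, and both thorax comparisons share the control library. The legend of the study's thorax figure names the daughterless driver in place of the tubulin driver of the sample descriptions.

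Each condition was 1 library, so no spread between replicates exists, no test was run and no p-value is given. The intervals beside ratios are exact binomial intervals at 95% on fragment numbers recovered from the steps of low FPKM values, and they cover counting error only. Depth ran from 2950000 fragments in the ND75 RNAi thorax to 8720000 in WT larvae with RU486. ND75 stood at 53.8 FPKM in the thorax with its knockdown, against 572 in the control and 375 under ΔOTC, and Pgam5 at 10.1 to 16.8 FPKM in the WT fat bodies and 0 to 0.841 in the null ones. The larval storage protein gene Lsp2 stood at 37070 FPKM or more in larvae and at no more than 27.1 in adult fat body, and the yolk protein gene Yp1 at 25120 or more in adult fat body and at no more than 0.243 in larvae. A gene was counted as higher at 3-fold or more and as lower at 2-fold or more below its control, and only where the control level was at least 10 FPKM. These are the thresholds of the study's figure legends.

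The level and the order of the 9 genes differed between thorax, larval fat body and adult fat body. In the thorax, whose bulk is flight muscle, the order from highest to lowest was GlyP, CG6904, Tps1, Hex-A, CG33138, Tret1-1, Treh, Hex-C and ImpL3 in all 3 libraries. GlyP had 1083 FPKM in control flies, 924 FPKM under ΔOTC and 1346 FPKM under ND75 RNAi, and ImpL3 6.97, 4.48 and 5.41 FPKM in the same order. The highest and the lowest of the 9 genes were thus 155-fold apart in the control thorax. In larval fat body without RU486 Tret1-1 was the highest, at 179.7 FPKM in WT and 186 in PGAM5 null, and Hex-C the lowest, at 2.53 and 0.370 FPKM. In adult fat body Tps1 led in all 4 libraries, at 2299 FPKM in WT without RU486, 3043 in WT with RU486, 2652 in PGAM5 null without RU486 and 2323 in PGAM5 null with RU486. The next gene in those libraries was 3.90- to 7.37-fold below it. The 3 tables were made separately, so levels set across tissues are a description. In pooled tissue, fewer cells of a type and less RNA per cell cannot be told apart.

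**Figure D1:**
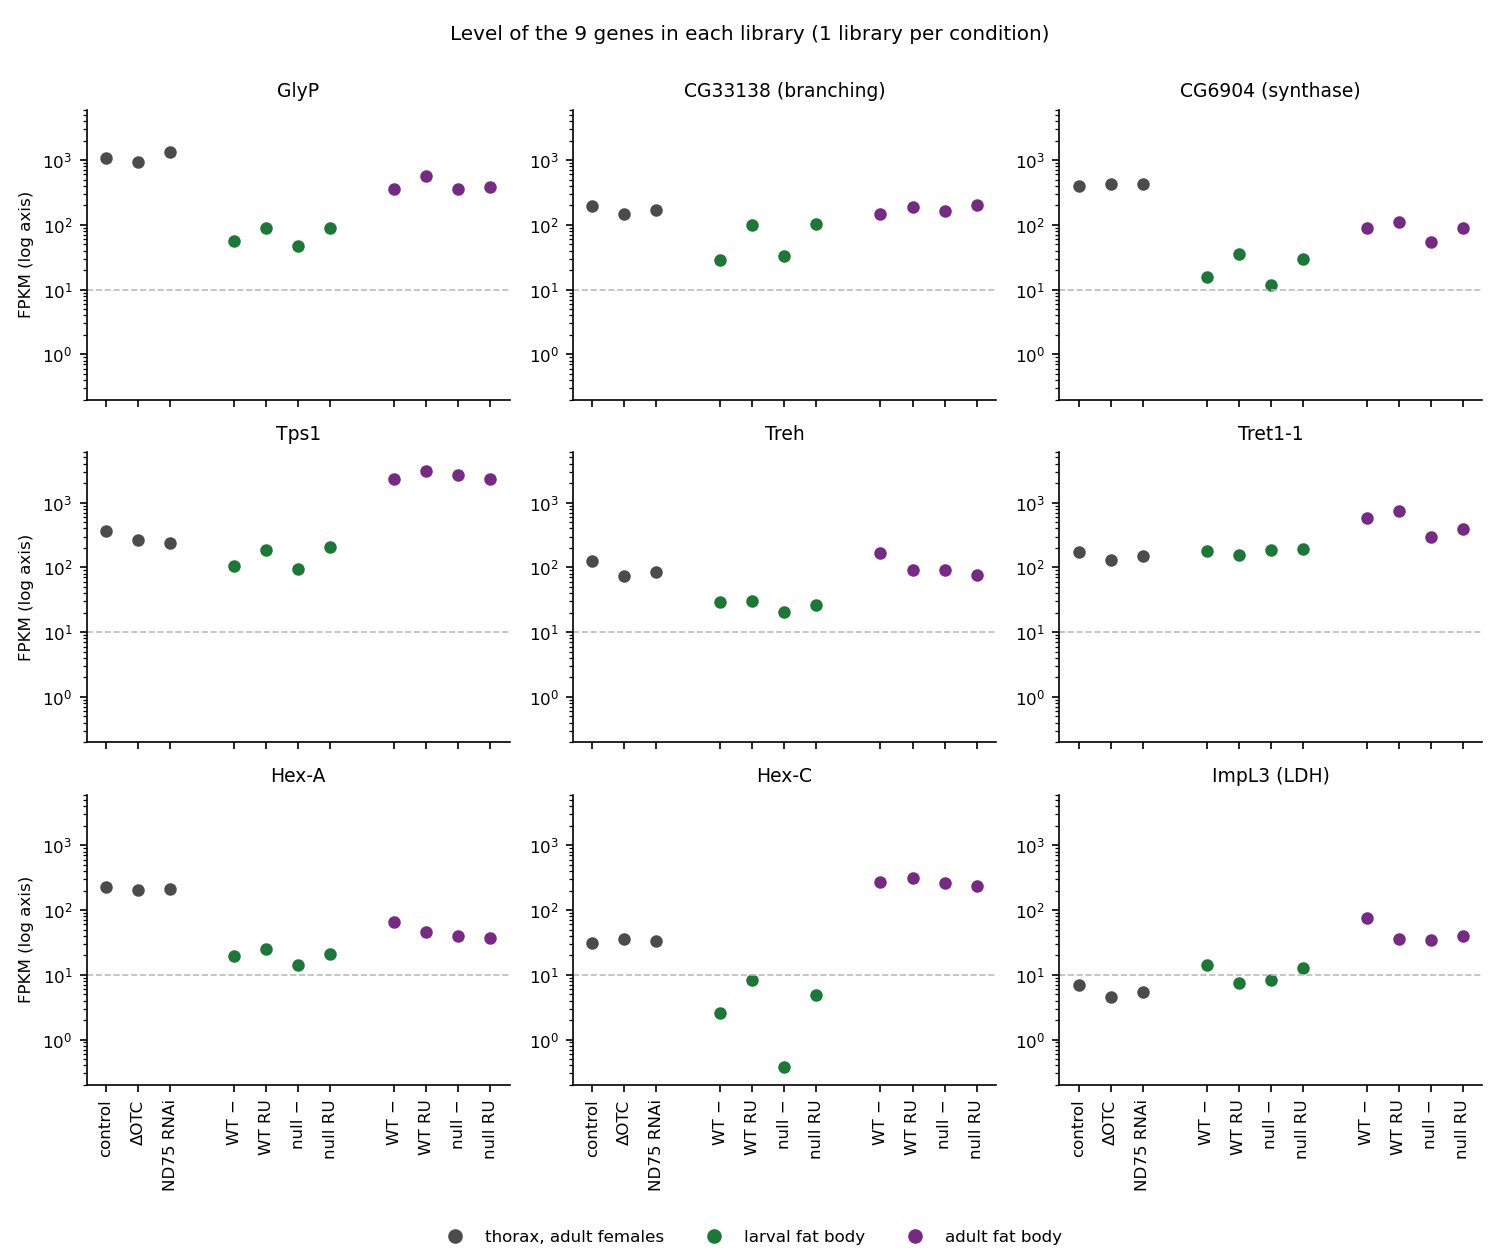
Level of each of the 9 genes (FPKM, log axis) in the 11 libraries, 1 point per library: grey, thorax; green, larval fat body; purple, adult fat body; −, no RU486; RU, RU486; the dashed line is 10 FPKM, the lowest control level at which a gene was counted. Tps1 sits between 2299 and 3043 FPKM in adult fat body and between 94.6 and 209 FPKM in larval fat body, and Hex-C falls below 10 FPKM only in the 4 larval libraries.

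Pairs of genes that act on the same substrate stood in different proportions in the 3 tissues. The level of Tps1, which leads to trehalose, over that of Treh, which splits it, was 2.76 to 3.53 in the thorax libraries and 3.67 to 7.86 in the larval ones. In adult fat body the ratio of levels was 13.8 in WT without RU486 and 29.2 to 33.4 in the other 3 libraries. Tret1-1 exceeded Tps1 only in the larvae without RU486, with a ratio of levels of 1.68 in WT and 1.97 in PGAM5 null, and stood at 0.111 to 0.257 of Tps1 in adult fat body. In the glycogen genes, the branching enzyme was below the synthase in thorax, at 0.348 to 0.506 of its level, and above it in every fat body library, at 1.62 to 3.42 times its level. GlyP exceeded the synthase in all 11 libraries, by 2.201-fold in the ΔOTC thorax at the least and by 6.63-fold in adult PGAM5 null fat body without RU486 at the most.

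The hexokinases changed places between tissues. Hex-A was the main hexokinase of thorax, at 227 FPKM in control flies, 201 FPKM under ΔOTC and 211 FPKM under ND75 RNAi. Hex-C, a hexokinase known mainly from fat body, made up 12.1% to 15.2% of the Hex-A and Hex-C sum there. In adult fat body its share was 80.3% to 87.3%, at 235 to 313 FPKM. Larval fat body was low in both. The sum of Hex-A and Hex-C was 14.4 to 33.6 FPKM in larvae against 273 to 359 FPKM in adults, and the share of Hex-C ran from 2.58% in PGAM5 null without RU486, where it rested on 3 fragments, to 24.97% in WT with RU486.

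**Figure D2:**
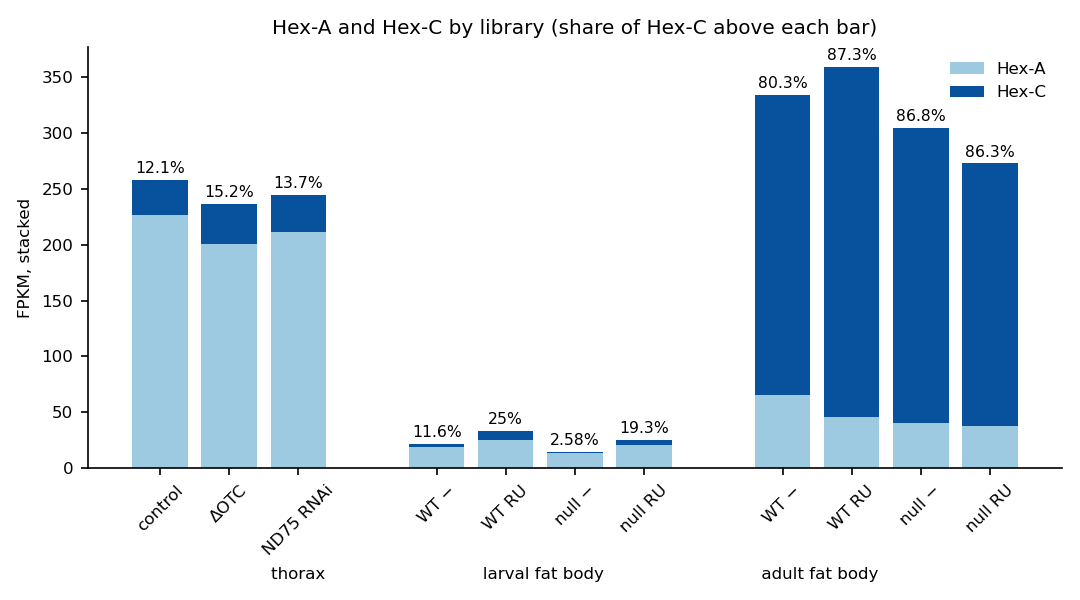
Stacked levels of Hex-A (light) and Hex-C (dark) in FPKM in each library, with the share of Hex-C in percent above each bar; −, no RU486; RU, RU486. Hex-C holds 12.1% to 15.2% of the sum in thorax and 80.3% to 87.3% in adult fat body, and both genes are low in larvae.

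The thorax comparisons asked how mitochondrial protein misfolding and the loss of a complex I subunit change expression in muscle-rich tissue. With ΔOTC, 0 of the 8 genes at 10 FPKM or more were counted as higher, against 1.02% of all genes at that level, and 0 as lower, against 6.66%. The median ratio of the 8 was 0.813, and that of all genes 1.02. Treh and Tps1 had the lowest ratios of the 8. Treh went from 125 FPKM in control flies to 74.6 FPKM under ΔOTC, a ratio of 0.598 (interval 0.551 to 0.648), and Tps1 at 372 and 263 FPKM, a ratio of 0.708 (0.678 to 0.738). CG33138 stood at 198 and 146 FPKM and Tret1-1 at 171 and 132 FPKM, with ratios of 0.740 and 0.773. Tret1-1, Tps1 and Treh were thus below the control, none of them past 2-fold. The 2 other trehalose genes tested were above it. CG5171 had a ratio of 1.42 (1.27 to 1.59) and CG5177 of 1.17 (1.065 to 1.28). GlyP had a ratio of 0.853 and Hex-A of 0.884. CG6904, at 391 and 419.9 FPKM, had a ratio of 1.08 on the deposited scale and of 0.9998 after upper quartile scaling, where its direction turned. Hex-C, at 31.2 and 35.9 FPKM, had a ratio of 1.15 with an interval that held 1 (0.955 to 1.39). ImpL3, below 10 FPKM in all 3 libraries, had a ratio of 0.643 (0.377 to 1.06) on 44 and 26 fragments.

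With ND75 RNAi, again 0 of 8 genes were higher and 0 lower, against 0.255% and 8.64% of all genes. The median ratio of the 8 was 0.910 and that of all genes 0.871. Tps1 and Treh again had the lowest ratios of the 8, at 0.637 (0.605 to 0.671) and 0.687 (0.626 to 0.753), from 237 and 85.7 FPKM with the knockdown. GlyP was above the control, at a ratio of 1.24 (1.21 to 1.27), and CG6904 at 1.11 (1.06 to 1.16). CG33138, Tret1-1 and Hex-A stood at 0.867, 0.889 and 0.931, and each of these directions turned under upper quartile scaling, that of Hex-A also under median ratio scaling. Hex-C and ImpL3 had ratios of 1.08 and 0.776 with intervals that held 1. Because both treatments were set against 1 control library, the low ratios of Tps1 and Treh in both rest on the same control values. The 13 muscle markers summed to 15890 FPKM in control flies, 12710 FPKM under ΔOTC and 26220 FPKM under ND75 RNAi. In that order, the 20 digestive enzyme genes of the gut summed to 2239, 322 and 127 FPKM. The 14 ovary markers summed to 315, 31.6 and 45.9 FPKM, and the 12 fat body markers to 23210, 20440 and 17410 FPKM. Of the 9 fat body markers compared, 2 stood above the control under ΔOTC and 0 under ND75 RNAi. Their median log2 ratios were -0.44 and -0.70. The part of any of these tissues in the ratios of Tps1, Treh and the other members was not tested.

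The larval comparisons asked what ΔOTC expressed under RU486 did in fat body, with and without PGAM5. Of the members tested, 6 of 8 stood above the untreated library in WT, against 23.4% of all genes. In PGAM5 null 7 of 7 did, against 28.0% of all genes. CG33138, CG6904 and Tps1 were among these members in both genotypes. CG33138, the branching enzyme, was the member past 3-fold in each. It was listed at 28.6 FPKM in WT without RU486 and at 97.9 with RU486, a ratio of 3.43 (3.07 to 3.83), and at 33.3 and 101 FPKM in PGAM5 null, a ratio of 3.05 (2.71 to 3.44). That made 1 of 8 members higher in WT, against 0.861% of all genes, and 1 of 7 in PGAM5 null, against 1.55%. None of the members was lower in either, against 30.5% of all genes in WT and 17.5% in PGAM5 null. The median ratio was 1.44 for the members and 0.707 for all genes in WT, and 1.92 and 0.782 in PGAM5 null.

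Glycogen synthase and trehalose-6-phosphate synthase followed the branching enzyme. CG6904 was listed at 15.5 and 35.6 FPKM in WT, a ratio of 2.29 (1.961 to 2.67), and at 11.7 and 29.6 FPKM in PGAM5 null, a ratio of 2.54 (2.07 to 3.12). Tps1 stood at 107 and 184 FPKM in WT and at 94.6 and 209 FPKM in PGAM5 null, ratios of 1.72 and 2.21. GlyP, which breaks glycogen down, had ratios of 1.58 (1.46 to 1.71) and 1.92 (1.74 to 2.11), from 56.8 to 89.7 FPKM in WT and from 47.4 to 90.8 FPKM in PGAM5 null. For these 4 genes both RU486 libraries were above both libraries without it. Their ratios stood between the 93.8th and 99.5th percentiles of all genes in WT, and between the 95.5th and 98.5th in PGAM5 null.

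Treh and Tret1-1 had ratios closer to 1. Treh was listed at 29.1 and 30.01 FPKM in WT, a ratio of 1.03 (0.911 to 1.16), and at 20.5 and 26.6 FPKM in PGAM5 null, a ratio of 1.30 (1.10 to 1.55). Tret1-1 stood at 179.7 and 156 FPKM in WT and at 186 and 193 FPKM in PGAM5 null, ratios of 0.870 and 1.04. The WT ratio of Tret1-1 was below 1 only on the deposited scale, and was 1.003 after median ratio scaling and 1.31 after upper quartile scaling. Hex-A had ratios of 1.30 (1.12 to 1.51) and 1.48 (1.204 to 1.83). Hex-C stayed under 10 FPKM in all 4 larval libraries and was not counted. Its level was 2.53 FPKM without and 8.38 with RU486 in WT, on 21 and 97 fragments, a ratio of 3.32 (2.02 to 5.49). In PGAM5 null it was 0.370 and 4.95 FPKM, on 3 and 25 fragments, a ratio of 13.4 (3.80 to 64.4). Both libraries with RU486 exceeded both without it, and the interval in PGAM5 null shows how little those 3 fragments fix the size.

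ImpL3 took opposite directions in the larval genotypes. It was listed at 14.2 FPKM without and 7.38 with RU486 in WT, a ratio of 0.520 (0.377 to 0.703), just short of the 2-fold threshold. The WT ratio was 0.599 after median ratio scaling and 0.783 after upper quartile scaling. In PGAM5 null ImpL3 was listed at 8.37 and 12.8 FPKM, on 55 and 56 fragments, a ratio of 1.52 (1.03 to 2.25). The null response over the WT response was 2.93 (1.82 to 4.73), at the 84.1st percentile of all genes, whose median was 1.10. Those genes had at least 10 FPKM without RU486 in both genotypes, which ImpL3 did not reach in PGAM5 null. The summed muscle markers had the same directions, from 604 to 347 FPKM in WT and from 363 to 871 FPKM in PGAM5 null, and 10 of the 10 muscle markers compared were higher with RU486 in PGAM5 null against 1 of 9 in WT. Their part in the ImpL3 values was not tested. For the other 8 members the response in PGAM5 null was 0.891 to 4.04 times that in WT.

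**Figure D3:**
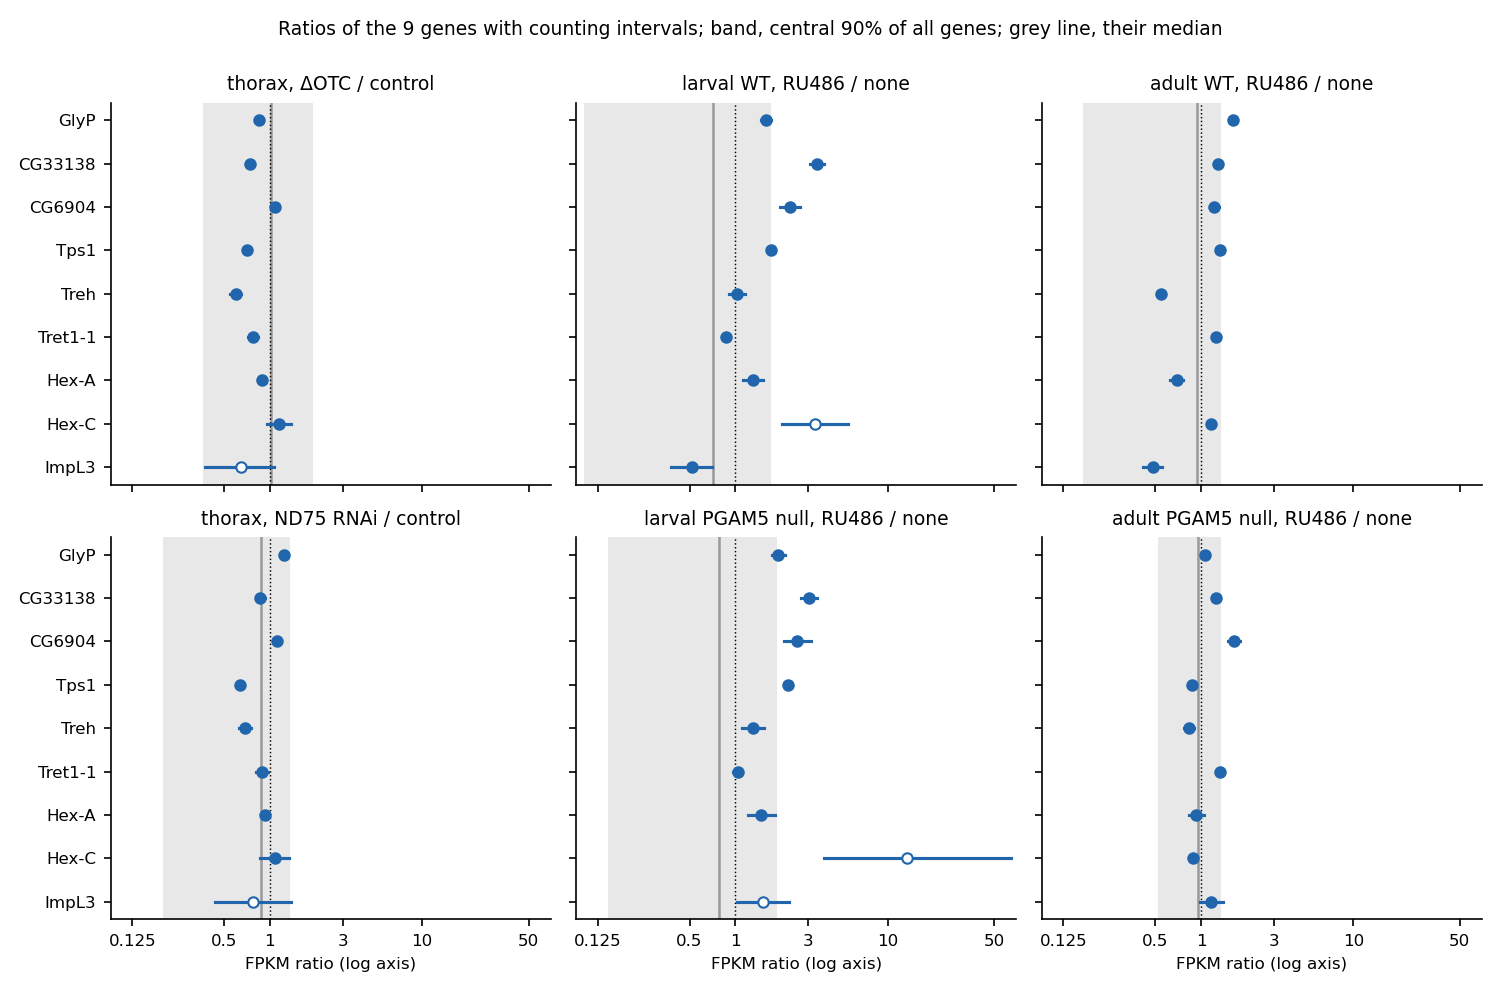
Ratio of FPKM (log axis) of each gene to its control in the thorax and to the library without RU486 in fat body; points with lines, ratio and counting interval; open points, control below 10 FPKM; grey band, 5th to 95th percentile of all genes at 10 FPKM or more; grey line, their median; dotted line, 1. CG33138, at 3.43 in WT and 3.05 in PGAM5 null larvae, and CG6904, at 2.29 and 2.54, lie to the right of the band in the larval panels, and ImpL3 stands at 0.482 in adult WT.

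Larval libraries held transcripts of other tissues in changing amounts. The 10 salivary gland markers, mostly glue protein genes, took up 14.5% of the FPKM sum in WT without RU486 and 7.67% with it, and 15.7% and 4.8% in PGAM5 null. The gut enzymes summed to 10300, 8753 and 10010 FPKM in the first 3 larval libraries and to 881 FPKM in PGAM5 null with RU486. The fat body markers took up 15.7% and 16.9% of the sum in WT and 13.9% and 23.6% in PGAM5 null. One of these markers, Lsp1beta, was listed at 29920 FPKM in WT without RU486 and at 0 with it. In PGAM5 null it was listed at 24230 and 49870 FPKM. The WT share with RU486 therefore holds no Lsp1beta, and the WT shares without and with RU486 are not on the same markers. The ratios of CG33138, CG6904, Tps1 and GlyP were 1.58 to 3.43 in WT, where the gut sum had a ratio of 0.850, and 1.92 to 3.05 in PGAM5 null, where it had a ratio of 0.0880. What part the gut transcripts, the fat body share or the falling share of glue transcripts had in these ratios or in those of other genes was not tested. The scaled values are given in the closing section.

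Of the related genes followed as fixed lists, few passed a threshold in larvae with RU486. Of all genes, 0.861% were higher and 30.5% lower in WT, and 1.55% higher and 17.5% lower in PGAM5 null. In glycogen metabolism, 0 of 9 genes tested in WT passed one, and 1 of 8 in PGAM5 null was lower, CG8475, a regulatory subunit of phosphorylase kinase, at 37.0 and 15.1 FPKM. The median log2 ratio of that list was 0.00 in WT and 0.22 in PGAM5 null, against -0.50 and -0.36 over all genes, and 9 of 9 and 7 of 8 had ratios above the median of all genes. In trehalose metabolism 2 of 2 genes tested in WT larvae were lower with RU486, where 30.5% of all genes were. CG5177, a predicted trehalose phosphatase, was listed at 76.7 and 24.8 FPKM, and CG6262, a second trehalase gene, at 15.5 and 1.70 FPKM. In PGAM5 null 0 of 2 passed. Hex-t2, a hexokinase of the testis, was also lower in WT larvae, at 11.96 and 1.04 FPKM, and Hex-t1, likewise of the testis, was listed at 2.42 and 0.339 FPKM, too low to be counted. In PGAM5 null larvae Hex-t2 was listed at 11.7 and 7.09 FPKM and CG6262 at 14.1 and 11.5 FPKM. No list of testis markers was followed, and the part of testis tissue in these values was not tested. In lactate and pyruvate handling 1 of 9 genes was higher in WT, l(1)G0334, the alpha subunit of pyruvate dehydrogenase, at 54.9 and 168 FPKM, and 0 of 9 passed in PGAM5 null. In gluconeogenesis, Pepck, phosphoenolpyruvate carboxykinase, was higher in PGAM5 null with RU486, at 142 and 652 FPKM (ratio 4.60, 4.37 to 4.85), and CG15400, a glucose-6-phosphatase, was lower in WT, at 13.5 and 2.55 FPKM.

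In adult fat body the treatment had ended at the larval stage. In WT 0 of 9 members were higher, against 0.319% of all genes, and 1 of 9, ImpL3, was lower, against 9.01%. The ImpL3 ratio was 0.566 under upper quartile scaling, which ended the count. In PGAM5 null 0 of 9 were higher and 0 lower, against 0.399% and 4.77%. GlyP was listed at 355.6 FPKM without and 574 with RU486 in WT, a ratio of 1.61 (1.56 to 1.66) at the 98.8th percentile of all genes, and at 359.8 and 381 FPKM in PGAM5 null, a ratio of 1.06 (1.02 to 1.10). WT with RU486 was thus the 1 adult library with a GlyP level above 381 FPKM. CG6904 stood at 89.4 and 109.5 FPKM in WT and at 54.3 and 89.3 FPKM in PGAM5 null, ratios of 1.22 (1.14 to 1.32) and 1.64 (1.505 to 1.80). CG33138 had ratios of 1.30 in WT and 1.25 in PGAM5 null, from 144 to 187 and from 163 to 204 FPKM. CG6904 and CG33138 were therefore above the untreated library in both adult genotypes, and none of these ratios passed 3-fold.

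Tps1 took opposite directions in the adult genotypes. It was above the untreated library in WT, with a ratio of 1.32 (1.31 to 1.34), and below it in PGAM5 null, with a ratio of 0.876 (0.864 to 0.888). Hex-C took the same directions, with a ratio of 1.17 (1.11 to 1.23) from 268 to 313 FPKM in WT and of 0.890 (0.836 to 0.946) from 264 to 235 FPKM in PGAM5 null. Tret1-1 was above the untreated library in both, with ratios of 1.25 and 1.33. The PGAM5 null library with RU486 also held ovary transcripts, 5402 FPKM summed over 14 markers against 66.7 to 177 FPKM in the other adult libraries, and their part in its ratios was not tested.

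**Figure D4:**
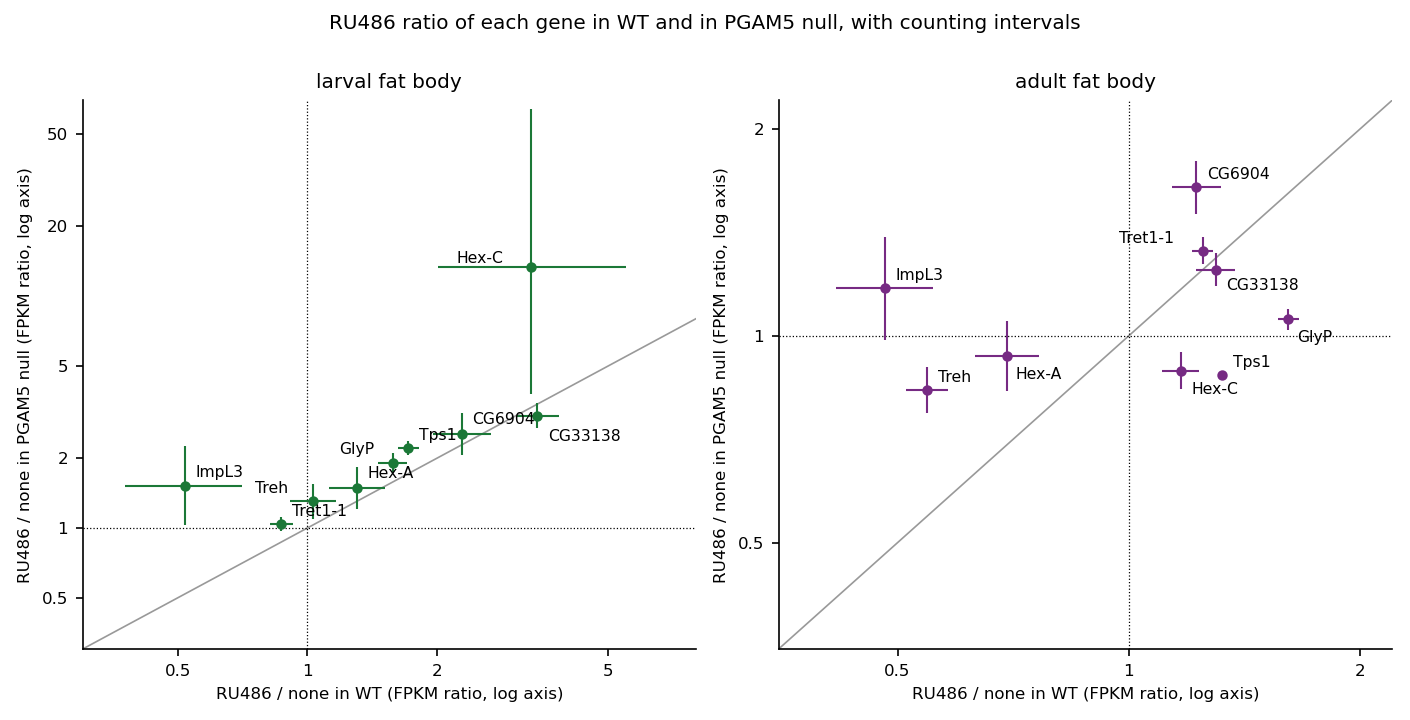
Ratio with RU486 over without RU486 in PGAM5 null against the same ratio in WT (log axes of different range, FPKM ratios), left in larvae and right in adults, with counting intervals as bars; the grey line marks equal ratios and the dotted lines 1. In larvae all 9 genes are above 1 in PGAM5 null, and Hex-C (3.32 in WT, 13.4 in PGAM5 null) and ImpL3 (0.520 and 1.52) lie farthest from the line; in adults Tps1 and Hex-C are above 1 in WT and below 1 in PGAM5 null.

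Treh, Hex-A and ImpL3 had another adult pattern, in which WT without RU486 was above the other 3 libraries. Treh was listed at 167 FPKM in that library and at 75.8 to 91.1 FPKM in the rest. Hex-A was listed at 65.8 FPKM against 37.5 to 45.6 FPKM, and ImpL3 at 74.1 FPKM against 34.3 to 40.2 FPKM. That 1 library therefore set the WT ratios of 0.547 (0.513 to 0.582) for Treh, 0.693 (0.630 to 0.763) for Hex-A and 0.482 (0.416 to 0.557) for ImpL3, whereas the PGAM5 null ratios were 0.834, 0.934 and 1.17. It also set the count of ImpL3 as lower in WT. The null response over the WT response was 2.43 (1.95 to 3.03) for ImpL3, at the 98.1st percentile of all genes, 1.53 for Treh and 1.35 for Hex-A, beside a median of 0.981. The same library held gut transcripts at 7601 FPKM summed over 20 digestive enzyme genes, of which 19 were at 1 FPKM or more, against 73.9 FPKM in WT with RU486 and 102 and 503 FPKM in PGAM5 null without and with RU486. The muscle markers were lowest in it, at 834 FPKM against 912 to 1767 FPKM. This library was also the lowest for GlyP, CG33138 and Tps1, at 355.6, 144 and 2299 FPKM. The lowest of the other 3 libraries stood close to it for GlyP and Tps1, at 359.8 and 2323 FPKM, and at 163 FPKM for CG33138. The highest stood at 574, 204 and 3043 FPKM for GlyP, CG33138 and Tps1. The WT library without RU486 enters their WT ratios as well. The part of the gut transcripts in the values of any member was not tested. Without that library no comparison with RU486 can be made in WT adults.

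**Figure D5:**
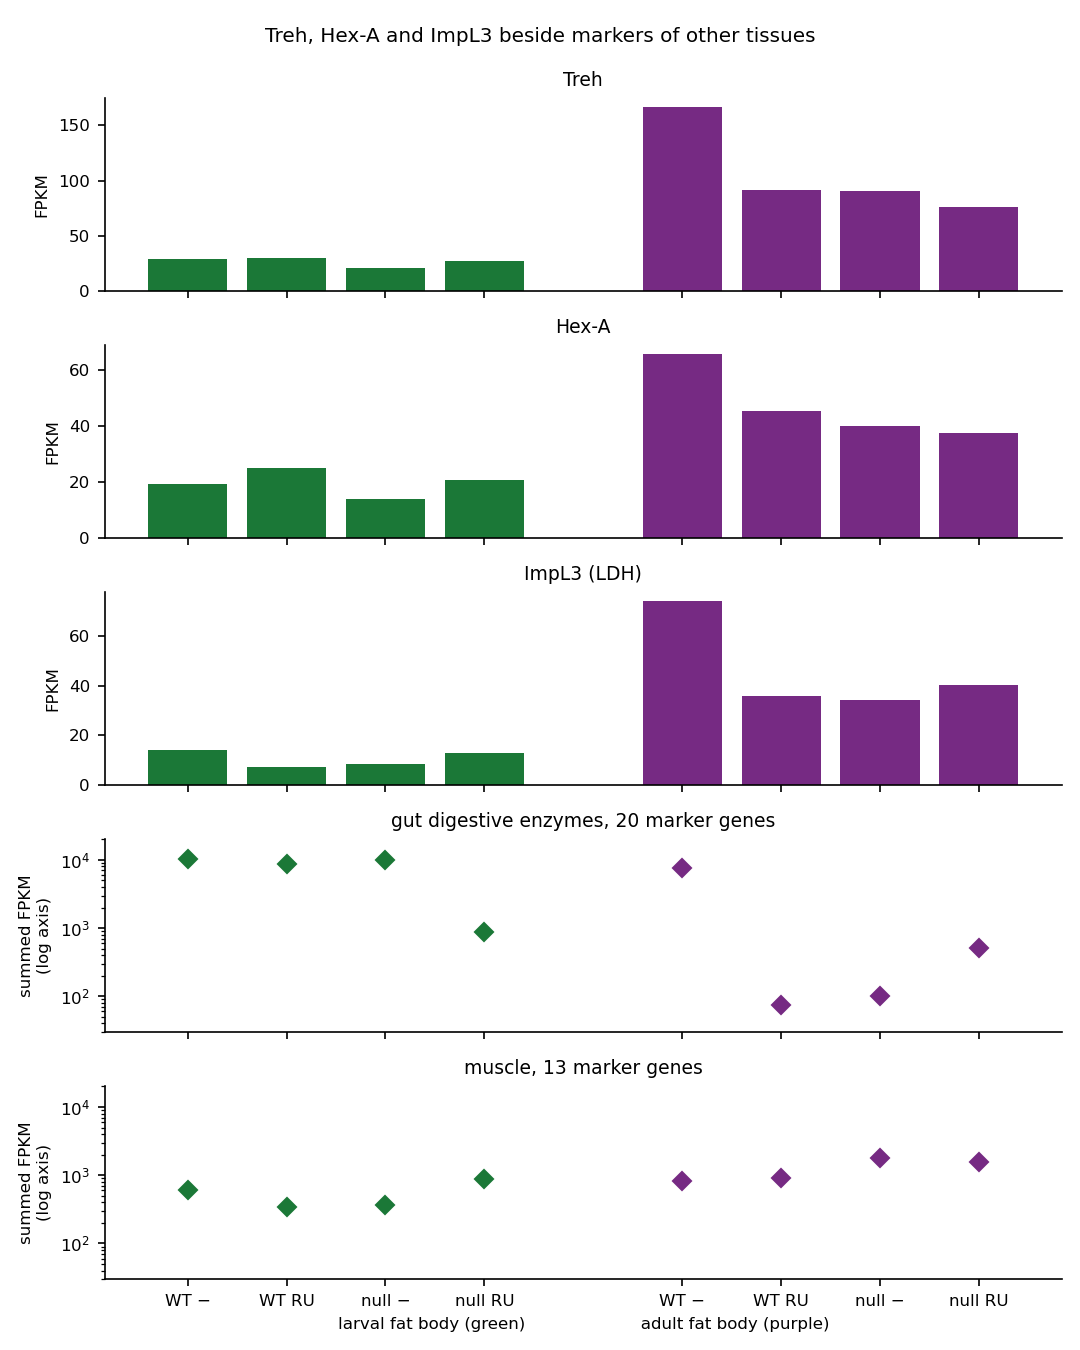
Levels of Treh, Hex-A and ImpL3 (bars, FPKM) in the 8 fat body libraries above the summed FPKM (diamonds, log axis) of 20 digestive enzyme genes of the gut and of 13 muscle genes. In adults all 3 genes are highest in WT without RU486, where the gut sum is 7601 FPKM against 73.9 to 503 FPKM in the other 3. The muscle sum is lowest in that library, at 834 FPKM. In larvae ImpL3 is higher in the libraries with muscle sums of 604 and 871 FPKM than in those with 347 and 363 FPKM. The larval gut sums are 10300, 8753, 10010 and 881 FPKM in the order drawn. The part of either tissue was not tested.

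Loss of PGAM5 without RU486 was compared at both stages. In larvae 0 of 8 members were higher, against 0.536% of all genes, and 0 lower, against 5.09%. Ratios of PGAM5 null to WT ran from 0.589 for ImpL3 (0.415 to 0.824) to 1.16 for CG33138 (1.01 to 1.34), with a median of 0.793 beside 0.900 over all genes, and those of GlyP and Tps1 were 0.834 and 0.883. Treh, Hex-A and CG6904 were also below WT, at 0.702, 0.724 and 0.752. Hex-C, not counted at 2.53 FPKM in WT, had a ratio of 0.146 (0.0295 to 0.517) on 21 and 3 fragments. With RU486 present, the larval genotypes were close in GlyP, at a ratio of 1.01 (0.936 to 1.09), and CG33138, at 1.04 (0.954 to 1.13). CG6904 was below WT there, at 0.833 (0.721 to 0.962).

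In adults 2 of 9 members were lower in PGAM5 null without RU486, ImpL3 and Tret1-1, against 14.9% of all genes, and 0 were higher, against 0.120%. The ImpL3 ratio, 0.463 (0.398 to 0.538), was 0.554 under upper quartile scaling, which ended the count. It rests on the WT library described above, and so do those of Treh, 0.545 (0.512 to 0.581), and Hex-A, 0.610 (0.551 to 0.675). Tret1-1 was lower in both pairs of libraries. It was listed at 590.1 FPKM in WT and 294 in PGAM5 null without RU486, a ratio of 0.499 (0.479 to 0.520), and at 736 and 391 FPKM with RU486, a ratio of 0.532 (0.513 to 0.552). Both WT libraries were thus above both PGAM5 null libraries. For WT and PGAM5 null in turn, the gut sums were 7601 and 102 FPKM without RU486 and 73.9 and 503 FPKM with it, and the ovary sums 66.7 and 177 FPKM without and 91.4 and 5402 FPKM with it, and their part in the ratios was not tested. The first of these ratios lies at the 2-fold threshold and passed it only on the deposited scale among the scalings tried. In larvae the Tret1-1 ratios of PGAM5 null to WT were 1.03 without and 1.23 with RU486. CG6904 was below WT in adult PGAM5 null, at 0.607 (0.555 to 0.662) without RU486 and 0.815 (0.757 to 0.877) with it. GlyP had a ratio of 1.01 without RU486 and of 0.663 (0.643 to 0.684) with it. CG33138 and Tps1 had ratios of 1.13 and 1.15 without RU486. The level of Hex-C was nearly the same, with a ratio of 0.985 (0.930 to 1.05) that exceeded 1 after either rescaling.

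Of the fixed lists, glycogen metabolism had 0 of 9 genes past a threshold in both adult RU486 comparisons, and 1 of 9 lower in PGAM5 null without RU486, PhKgamma, the catalytic subunit of phosphorylase kinase, at 133 and 65.0 FPKM. Trehalose metabolism had 0 of 2 in all 3 adult comparisons. Of all genes, 9.01% were lower with RU486 in WT adults and 4.77% in PGAM5 null adults. In adult PGAM5 null against WT without RU486, 14.9% were lower. The shares higher were 0.319%, 0.399% and 0.120% in the same order. In larvae without RU486, CG5177 was lower in PGAM5 null, at 20.8 FPKM against 76.7 in WT, the same WT library that gave its ratio to RU486. Pepck was lower there too, at 142 FPKM against 303. These were 1 of 2 trehalose and 1 of 5 gluconeogenesis genes tested, beside 5.09% of all genes lower. CG8028, a predicted monocarboxylate transporter, was the 1 of 12 lactate and pyruvate genes that was lower in adult PGAM5 null, at 7.09 FPKM against 33.0. In the thorax, 0 of 9 glycogen, 0 of 2 trehalose, 0 of 11 lactate and pyruvate and 0 of 4 gluconeogenesis genes passed with ΔOTC or with ND75 RNAi. Of all genes, 6.66% were lower and 1.02% higher with ΔOTC, and 8.64% lower and 0.255% higher with ND75 RNAi. Counts of 0 or 1 in lists this small do not set the lists apart from all genes. With ΔOTC in the thorax, 8 of 9 glycogen and 2 of 2 trehalose genes had ratios above 1. So did 4 of 11 lactate and pyruvate and 1 of 4 gluconeogenesis genes, beside 53.3% of all genes. With ND75 RNAi these counts were 3, 1, 7 and 0 in the same order, beside 28.5% of all genes.

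Over the 8 fat body libraries, with each stage centred on its own mean, some members varied together. The Pearson correlations of log2(FPKM + 1) between GlyP, CG33138, CG6904, Tps1 and Hex-C were 0.77 to 0.92, and that between Treh and Hex-A was 0.92. Hex-A also correlated with Hex-C at 0.70 and with CG6904 at 0.65. ImpL3 correlated with Treh at 0.70 and with GlyP at -0.21, and Tret1-1 with no member above 0.36. These values describe 8 libraries that share their tables and treatments. Among 3408 other genes at a mean of 10 FPKM or more at both stages, those most like CG33138 were Spn43Ab (0.98), Pglym78, which encodes the glycolytic phosphoglycerate mutase (0.98), and Pgm, phosphoglucomutase, which links glucose-1-phosphate to glucose-6-phosphate (0.97). Pgm was listed at 59.6 and 161 FPKM in WT larvae and at 69.0 and 132 FPKM in PGAM5 null larvae without and with RU486. GlyP was followed most closely by Plod (0.98), CG10639 (0.98) and CG5167 (0.97), CG6904 by CG43103 (0.98), bgm (0.97) and CG1910 (0.97), and Tps1 by CG5210 (0.98), CG12140 (0.98) and desat1, a fatty acid desaturase (0.97). For Hex-C these were CG8128 (0.99), CG9140 (0.99), a subunit of complex I, and CG3036 (0.99). The genes nearest to Treh were Cam, calmodulin (0.96), Pvr, a receptor tyrosine kinase (0.95), and Unc-115a (0.95). Hex-A was most like beta-Spec, beta-spectrin (0.98), Rac2 (0.96) and CG16985 (0.96), and ImpL3 was most like Scox (0.96), Abi (0.94) and fwd (0.93). Tret1-1 was nearest to Lip4 (0.94), CG3226 (0.94) and yip2 (0.92), and Lip4 was listed at 177 and 195 FPKM in the adult WT libraries and at 98.8 FPKM in PGAM5 null without RU486.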

How the data were processed

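RNA of pooled tissue was made into TruSeq libraries, 1 per condition, and read on a MiSeq. The authors mapped the reads to the fly genome with TopHat and Bowtie and computed FPKM per gene with Cufflinks, and the 3 deposited FPKM tables of 15603 genes were used as given. Versions are not given in the sources used here. The table of adult fat body is headed as larval in its first line and was taken as adult from its other labels. Within each table, 11 pairs of libraries were compared as FPKM ratios with no test, 8 of them as main comparisons. Depth was estimated from 5960 genes with 1 transcript of 600 bases or more in a release 6 annotation, used for lengths only; 80.1% to 84.4% of genes under 5.5 fragments came within 0.1 of a whole number. Fragment numbers used the shortest annotated transcript, which gives the widest interval. In a simulation from the levels of the control thorax (5960 genes), 100% of 4-fold and 0% of 2-fold changes were counted as higher, and 95.9% of intervals held the true ratio. Alternatives varied the control minimum (1 FPKM), the thresholds (2-fold in either direction), a pseudocount of 1 and the scaling. Median ratio scaling used genes at 10 FPKM or more in both libraries and upper quartile scaling those at 1 FPKM or more in either. The members and 8 pathway lists (78 genes, all matched) were chosen with earlier results of these data known. Named were all members in each main comparison, up to 4 genes per list and main comparison past the thresholds (the largest ratios), the 3 genes most like each member, ND75 and Pgam5; Lsp2, Yp1 and the marker genes serve as checks, and Hex-t1 and, for adult PGAM5 null against WT, CG7882 were added after their values were seen. A genome of the release used by the authors was not used here, and no sequence or coordinate is given. Scripts ran in Python 3.11.15 with scipy 1.17.1, pandas 2.3.3, numpy 2.4.6 and, for plots, matplotlib 3.10.9.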

Additional observations from a re-analysis of the deposited data

Results flagged for a closer look

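On the deposited scale, the RU486 ratio took opposite directions in WT and PGAM5 null, with both counting intervals clear of 1, for 3 members. Each rests on 1 library per condition, so that none of these differences was tested. Intervals were not computed on the other scales. ImpL3 in larval fat body had a ratio of 0.520 in WT and 1.52 in PGAM5 null. Under upper quartile scaling these were 0.783 and 1.95. Tps1 in adult fat body had a ratio of 1.32 in WT and 0.876 in PGAM5 null, and Hex-C in adult fat body one of 1.17 in WT and 0.890 in PGAM5 null. Opposite directions with an interval that held 1 in PGAM5 null were also seen for ImpL3 in adults, at 0.482 and 1.17, and for Tret1-1 in larvae, at 0.870 and 1.04, the WT value of Tret1-1 turning above 1 after either rescaling.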

How the results depend on the processing

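With 1 library per condition no replicate could be left out, and no paired analysis was possible because no result comes from a test and the libraries carry no replicate numbers. Under upper quartile scaling the median log2 ratio of the members was 1.12 in place of 0.53 in WT larvae with RU486, 1.29 in place of 0.94 in PGAM5 null larvae, 0.52 in place of 0.29 in WT adults and -0.45 in place of -0.71 for adult PGAM5 null against WT. With ND75 RNAi it turned from -0.14 to 0.11, and was -0.0069 under median ratio scaling, which gave 1.15 in PGAM5 null larvae. A control minimum of 1 FPKM gave 0.78 there. The members higher with RU486 in larvae were 2 in WT under upper quartile scaling, under a control minimum of 1 FPKM and at 2-fold, against 1, and in PGAM5 null 2 under upper quartile scaling and 3 at 2-fold, against 1. The members lower in adult PGAM5 null without RU486 were 1 under median ratio scaling and 0 under upper quartile scaling, against 2, and those lower in WT adults with RU486 were 0 under upper quartile scaling, against 1. A control minimum of 1 FPKM made 1 member lower in larval PGAM5 null against WT, against 0. In larvae with RU486 all genes shifted on the log2 scale by 0.59 in WT and 0.35 in PGAM5 null under upper quartile scaling and by 0.20 and 0.21 under median ratio scaling. The causes of these shifts were not tested. A pseudocount of 1 changed no direction among the 72 member ratios but took the larval Hex-C log2 ratio in PGAM5 null from 3.74 to 2.12, and that of PGAM5 null against WT from -2.77 to -1.36.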

Other observations

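Genes of the pentose phosphate pathway, which makes NADPH from glucose-6-phosphate, and of polyol metabolism were often lower in the thorax with ΔOTC. Of the 9 genes tested 6 were 2-fold or more below the control, beside 6.66% of all genes. Pgd, 6-phosphogluconate dehydrogenase, was listed at 48.7 and 16.6 FPKM (ratio 0.340, 0.277 to 0.418), CG8036, a predicted transketolase, at 186 and 79.7 FPKM, Rpi, ribose-5-phosphate isomerase, at 23.2 and 9.74 FPKM, and Sodh-1, a sorbitol dehydrogenase, at 56.5 and 24.5 FPKM. With ND75 RNAi 1 of 9, Rpi, was lower, at 11.4 FPKM, beside 8.64% of all genes. In larvae with RU486, Pgd was higher in WT, at 97.6 and 318 FPKM (ratio 3.26, 3.03 to 3.51), and Sodh-1 was lower in both genotypes, at 81.6 and 23.9 FPKM in WT and at 91.5 and 10.4 FPKM in PGAM5 null. With RU486, 1 of 9 tested was higher and 1 lower in WT larvae, beside 0.861% and 30.5% of all genes. In PGAM5 null larvae 1 of 8 was lower, beside 17.5%. Sodh-2 was lower in PGAM5 null larvae than in WT without RU486, at 8.10 against 29.1 FPKM, 1 of 9 tested beside 5.09%.

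Among other sugar transporters, 5 of 10 genes tested were lower in adult PGAM5 null than in WT without RU486, beside 14.9% of all genes. CG14606 was listed at 26.5 and 1.51 FPKM, CG6484 at 209 and 22.3 FPKM, CG1208 at 34.9 and 7.45 FPKM, CG3285 at 38.3 and 9.81 FPKM and CG7882 at 119.8 and 32.6 FPKM. CG1208 and CG6484, 2 of 10 tested beside 9.01% of all genes, were also lower in WT adults with RU486, at 6.42 and 84.2 FPKM. They were set against the same WT library with its gut transcripts at 7601 FPKM, whose part was not tested. In the thorax CG6484 fell from 12.5 FPKM to 1.66 with ΔOTC and 1.17 with ND75 RNAi, in libraries whose gut sums were 2239, 322 and 127 FPKM. It was the 1 of 6 tested that was lower with each, beside 6.66% and 8.64% of all genes. The alpha-glucosidase gene tobi, a target of insulin signalling, was listed at 510.0 FPKM in adult WT without RU486, 115.1 with RU486 and 32.3 in PGAM5 null without RU486. CG7882 stood at 32.6 FPKM without and 1.84 with RU486 in adult PGAM5 null, the 1 of 7 tested that was lower, beside 4.77% of all genes. In larvae with RU486, Glut1 was lower in both genotypes, at 11.3 and 4.64 FPKM in WT and 21.2 and 4.29 FPKM in PGAM5 null. In WT larvae sut4 and CG14605 were lower, at 19.6 and 1.95 FPKM and at 10.6 and 0.585 FPKM, and CG3285 was higher, at 14.5 and 47.6 FPKM. That made 3 of 7 tested lower and 1 higher in WT, beside 30.5% and 0.861% of all genes. In PGAM5 null 1 of 4 was lower, beside 17.5%. Without RU486, CG10960, CG7882 and CG3285 were lower in PGAM5 null larvae than in WT, at 24.8 against 52.2, 8.45 against 21.2 and 4.87 against 14.5 FPKM. These were 3 of 7 tested, beside 5.09% of all genes.

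Regulators of sugar use that passed a threshold were few. With ND75 RNAi 2 of 13 tested were lower, beside 8.64% of all genes. In PGAM5 null larvae with RU486 1 of 10 was higher and 1 lower, beside 1.55% and 17.5%. In adults tobi, given above, was the 1 of 15 lower in WT with RU486, beside 9.01%. It was also the 1 of 15 lower in PGAM5 null against WT without RU486, beside 14.9%. In PGAM5 null adults with RU486 1 of 16 was lower, beside 4.77%. With ND75 RNAi, GRHR, the receptor of adipokinetic hormone, was listed at 25.9 and 12.2 FPKM, and sug, the sugar-responsive zinc finger factor sugarbabe, at 41.7 and 17.9 FPKM. In PGAM5 null larvae with RU486, sug was higher, at 13.9 and 47.2 FPKM (ratio 3.40, 2.65 to 4.38), and gbb, a BMP ligand, was lower, at 25.6 and 12.6 FPKM. Akh, the hormone itself, was listed at 18.6 FPKM in adult PGAM5 null without RU486 and at 0 with it, which allows a ratio of up to 0.0942. Whether these Akh transcripts came from fat body or from other tissue in the dissection was not tested.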
